A study of Drosophila melanogaster with 3 samples.

Results

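The cytosolic ribosomal protein genes of Drosophila melanogaster were taken as all protein-coding genes whose symbol begins with RpL or RpS and a digit, or with RpLP, and does not contain "-like". This rule gave 87 of 13945 protein-coding genes, 50 for the large subunit and its stalk and 37 for the small subunit. The rule itself uses symbols only. Binding of the tagged transcription factor subunit Nf-YC was read at each of them from peak lists. A peak's summit is its point of highest signal, and bound genes are those with at least 1 annotated transcription start site (TSS) no more than 500 bp from a summit.

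The material was whole embryos of mixed sex, aged 0 to 18 hours, from 1 transgenic line that carries Nf-YC fused at its C terminus to green fluorescent protein. The tag was used to immunoprecipitate chromatin, whose DNA was sequenced (ChIP-seq). There were 3 biological replicates and 1 group, with no second genotype, treatment or stage, so no contrast between conditions exists and no test between groups was made. The tag was read in all cells of the embryo together, and a signal cannot be assigned to a tissue or a time within the collection.

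Cytosolic ribosomes are built from ribosomal RNA and a set of ribosomal proteins that cells need in equal numbers, and loss of 1 copy of many of these genes gives the Minute phenotype of slow growth and short bristles. Their promoters in flies mostly lack a TATA box and begin at a polypyrimidine initiator, a run of pyrimidines around a C at the start site. The transcription factors Dref and M1BP are known to act at many of them. NF-Y, to which Nf-YC belongs, is a complex of 3 different subunits that recognises CCAAT boxes in promoters.

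The windows below show the DNA under the summits of the strongest peaks at these genes, 50 bp to each side, because they carry the highest signals of the set. They are the sense strand of the gene, 5′ to 3′, from the Release 6 (dm6) sequence of RefSeq, and capitals mark CCAAT or its reverse complement ATTGG. The windows are RpL34b on the minus strand (chr3R:9401339-9401439), RpS27 on the minus strand (chr3R:25247486-25247586), RpL32 on the minus strand (chr3R:30046230-30046330), RpL13 on the plus strand (chr2L:9967160-9967260), RpL14 on the plus strand (chr3L:8600936-8601036) and RpL13A on the plus strand (chr3R:5624360-5624460). Of these 6 windows, those at RpS27 and RpL13 hold a CCAAT box.
RpL34b: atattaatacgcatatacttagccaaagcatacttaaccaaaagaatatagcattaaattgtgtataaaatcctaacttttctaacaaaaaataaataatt
RpS27: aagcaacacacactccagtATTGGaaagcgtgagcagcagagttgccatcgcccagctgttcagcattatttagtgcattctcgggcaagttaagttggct
RpL32: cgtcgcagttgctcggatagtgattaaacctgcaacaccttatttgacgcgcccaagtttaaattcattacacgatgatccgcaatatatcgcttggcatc
RpL13: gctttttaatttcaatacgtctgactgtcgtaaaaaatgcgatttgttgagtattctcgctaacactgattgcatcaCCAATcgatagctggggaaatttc
RpL14: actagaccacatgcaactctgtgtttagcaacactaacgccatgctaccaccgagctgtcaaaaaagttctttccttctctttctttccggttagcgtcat
RpL13A: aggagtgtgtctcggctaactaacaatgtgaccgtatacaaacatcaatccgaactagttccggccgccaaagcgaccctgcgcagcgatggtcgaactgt

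Nf-YC was bound at most ribosomal protein genes. In the thresholded set of 7476 peaks, which the authors kept by the irreproducible discovery rate (IDR), 68 of the 87 genes were bound (78.2%), against 30.6% of all 13945 protein-coding genes. The large subunit had 37 of 50 bound (74.0%) and the small subunit 31 of 37 (83.8%). The difference between the subunits was not tested. In the full list of replicate 1 all 37 small-subunit genes had a summit, against 40 of the 50 large-subunit genes, while replicate 3 gave 33 and 44. The strongest peaks of the 68 bound genes were 68 distinct peaks. Of the 68 genes, 16 had 2 or more thresholded summits (23.5%), close to the 21.1% of other bound genes.

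The share was similar in each replicate. Among the 7476 strongest peaks of replicates 1, 2 and 3, 68, 67 and 71 members had a summit, against a background of 29.5%, 31.2% and 31.8% of all genes. In the full lists of 30000 peaks, 77, 78 and 77 members had one, against 47.3%, 48.7% and 48.9% of all genes. The pooled list gave 78 members against 46.1%. A summit was present in all 3 full replicate lists for 70 members and in none of them for 3. The shares of all genes in these 2 classes are not given, so these counts have no background.

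**Figure D1:**
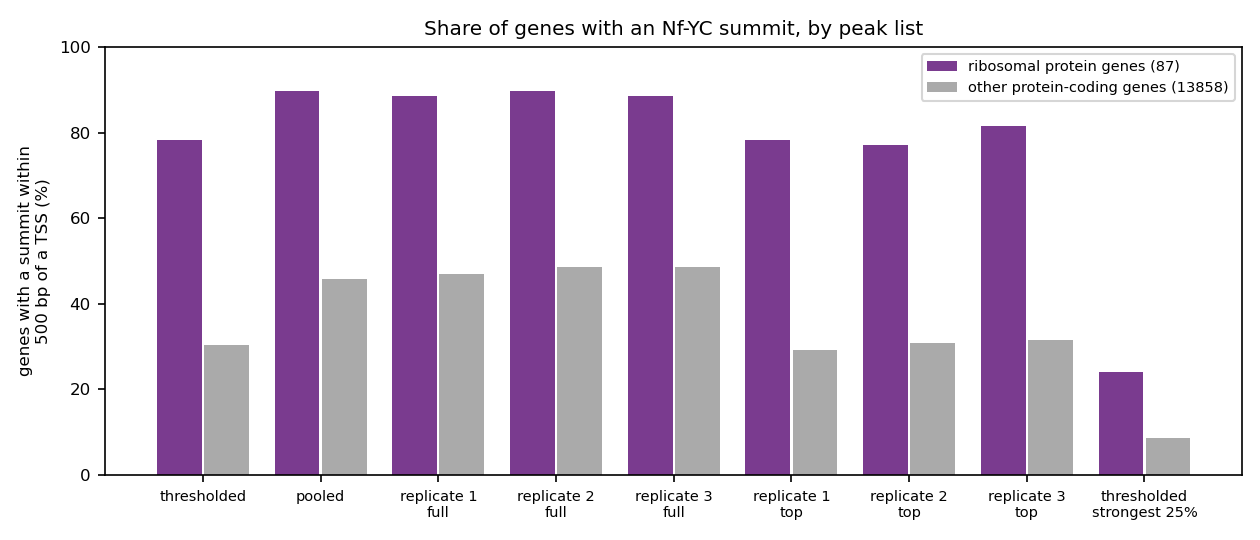
Bars give the share of genes (%) with a summit within 500 bp of a TSS in each peak list, for the 87 ribosomal protein genes (purple) and the 13858 other protein-coding genes (grey). "Top" lists hold the 7476 strongest peaks of a replicate. The purple bar stands above the grey bar in every list, at 78.2% against 30.3% in the thresholded set.

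These peaks lay mostly above the middle of the thresholded set. Its upper 50% by rank held 49 of the 68 bound members (72.1%), against 57.8% of other bound genes. The signal value of a peak is a score of the authors' peak caller with no stated unit, and it was not scaled between lists, so the rank within a list is given beside replicate signals where they are compared. The strongest peak at a member had a median signal of 668 over the 68 bound members, against 532 over 4197 other bound genes. The upper quartiles were 920.0 and 906. The highest member signal was 2260, at rank 629 of 7476, and no peak ranked above it was the strongest of any ribosomal protein gene. In the strongest 25% of the set lay the peaks of 21 of the 87 members, against 8.69% of all genes. Among bound genes alone the shares there were close, at 30.9% of members and 28.4% of other genes. The weakest 25% held 5 of the 68 bound members (7.35%), against 19.2% of the other bound genes. Peaks at members were also narrower, with a median width of 366 bp against 449 bp.

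The thresholded set was split by rank into 4 equal bands. The strongest band held 16 large-subunit and 5 small-subunit genes, including RpL7, RpL22, RpL23A, RpL24 and RpL28 beside those described below. The next held 13 and 15, among them RpL3, RpL8, RpL18, RpL23, RpL26, RpL27, RpL27A, RpL29, RpL30, RpL31, RpL35A, RpL37A and RpLP1, and RpS3A, RpS4, RpS5a, RpS10b, RpS13, RpS14a, RpS14b, RpS16, RpS18, RpS19a, RpS23, RpS27A, RpS29 and RpS30. The band after it held 7 of each, among them RpL4, RpL6, RpL10Ab, RpL12, RpL35, RpL36 and RpL37-1, and RpS3, RpS6, RpS12, RpS15Aa and RpS28b. The weakest band held RpL17 and 4 small-subunit genes, RpS2, RpS9, RpS15 and RpS19b. RpS2 and RpS3 line the path of the mRNA through the ribosome, and RpL3 lies near the site of peptide bond formation.

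By chromosome arm, 13 of 14 members on X were bound, 12 of 14 on 3L, 18 of 22 on 3R, 13 of 19 on 2R and 11 of 17 on 2L. Of other genes, 33.5% on X, 30.1% on 3L, 31.5% on 3R, 28.9% on 2R and 27.7% on 2L were bound. RpS3A, the single member on 4, was bound.

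Among the large-subunit genes, RpL34b had the strongest peak. Its signal was 1001, 791 and 514 in replicates 1, 2 and 3, or 769 ± 244 (SD, n = 3), and its ranks of 673, 586 and 613 were close to each other. The summit lay 163 bp upstream of its TSS on 3R (peak 9401113 to 9401626) and nearer to a TSS of CG8132, at 106 bp. RpL32, a widely used reference transcript in flies, had 624, 376 and 392, or 464 ± 139 (SD, n = 3), but its ranks of 1113, 1297 and 813 put it highest in replicate 3. Its summit lay 119 bp upstream of its TSS on 3R, shared with CG7943.

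RpL13 had 553, 359 and 263 in replicates 1, 2 and 3, or 392 ± 148 (SD, n = 3). Its peak (2L, 9966922 to 9967460) lay in the 5′ UTR of Dref, whose product acts at promoters of growth genes, 19 bp from a Dref TSS and 103 bp from that of RpL13. RpL14 had 447, 387 and 345, or 393 ± 51.2 (SD, n = 3), at 20 bp upstream of its TSS, opposite Nelf-E, a subunit of the complex that pauses RNA polymerase II. RpL13A had 414, 384 and 316, or 371 ± 49.9, and RpL19 had 452, 434 and 251, or 379 ± 111 (SD, n = 3 each). Replicate 1 gave the highest signal at each of these 4 genes and replicate 3 the lowest, the order also of the median signal of the whole lists, at 61.6, 45.3 and 29.0. By rank the order differed, with RpL14 at 1622, 1250 and 945, RpL13A at 1776, 1265 and 1041, and RpL13 at 1271, 1358 and 1297.

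The 3 stalk genes, whose products recruit the translation factors that use GTP, were all bound. RpLP0 had 311, 299.6 and 304 in the replicates, or 305 ± 5.90 (SD, n = 3), at ranks of 2517, 1686 and 1097, so the even signals stand at uneven ranks. RpLP1 had 369, 209.7 and 165, and RpLP2 had 430, 322 and 213. RpL11, a partner of 5S ribosomal RNA, had a thresholded signal of 1009 on 2R, but replicate 3 had no summit within 500 bp of its TSS. Replicates 1 and 2 gave 418 and 400.3 there.

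Among the small-subunit genes, RpS27 had the strongest peak and the second strongest of all members. Its signal was 664, 500.5 and 524 in replicates 1, 2 and 3, or 563 ± 88.4 (SD, n = 3). The summit lay 22 bp upstream of its TSS on 3R (peak 25247320 to 25247943), and the divergent gene Nup37, for a nuclear pore protein, started 122 bp away. RpS20, RpS25, RpS21 and RpS7 followed, with signals in the thresholded set of 1061, 1015, 921 and 912. RpS6, the substrate of the growth-regulated S6 kinase, had a weaker peak of 347 at rank 5161. That summit lay 417 bp upstream of the RpS6 TSS and 132 bp from that of its neighbour bys, a gene for ribosome assembly.

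The weakest of the bound members were RpS19b, RpL17 and RpS15, with signals of 256, 266 and 276 in the thresholded set, whose lowest value was 246. RpS15 had 182, 63.4 and 57.9 in replicates 1, 2 and 3, at ranks of 4962, 11013 and 7171. RpL17 had 121, 131 and 39.5, at ranks of 7879, 4970 and 10633, and was lowest in replicate 3 by both measures. RpS19b had 147 and 77.0 in replicates 1 and 2. In replicate 3 the nearest summit lay 515 bp from its TSS, just outside the window. Within 200 bp of the thresholded summit all 3 replicates had one, with a mean signal of 90.9. The thresholded peak of RpS19b lay 383 bp from its own TSS but 1 bp from that of CG5854.

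**Figure D2:**
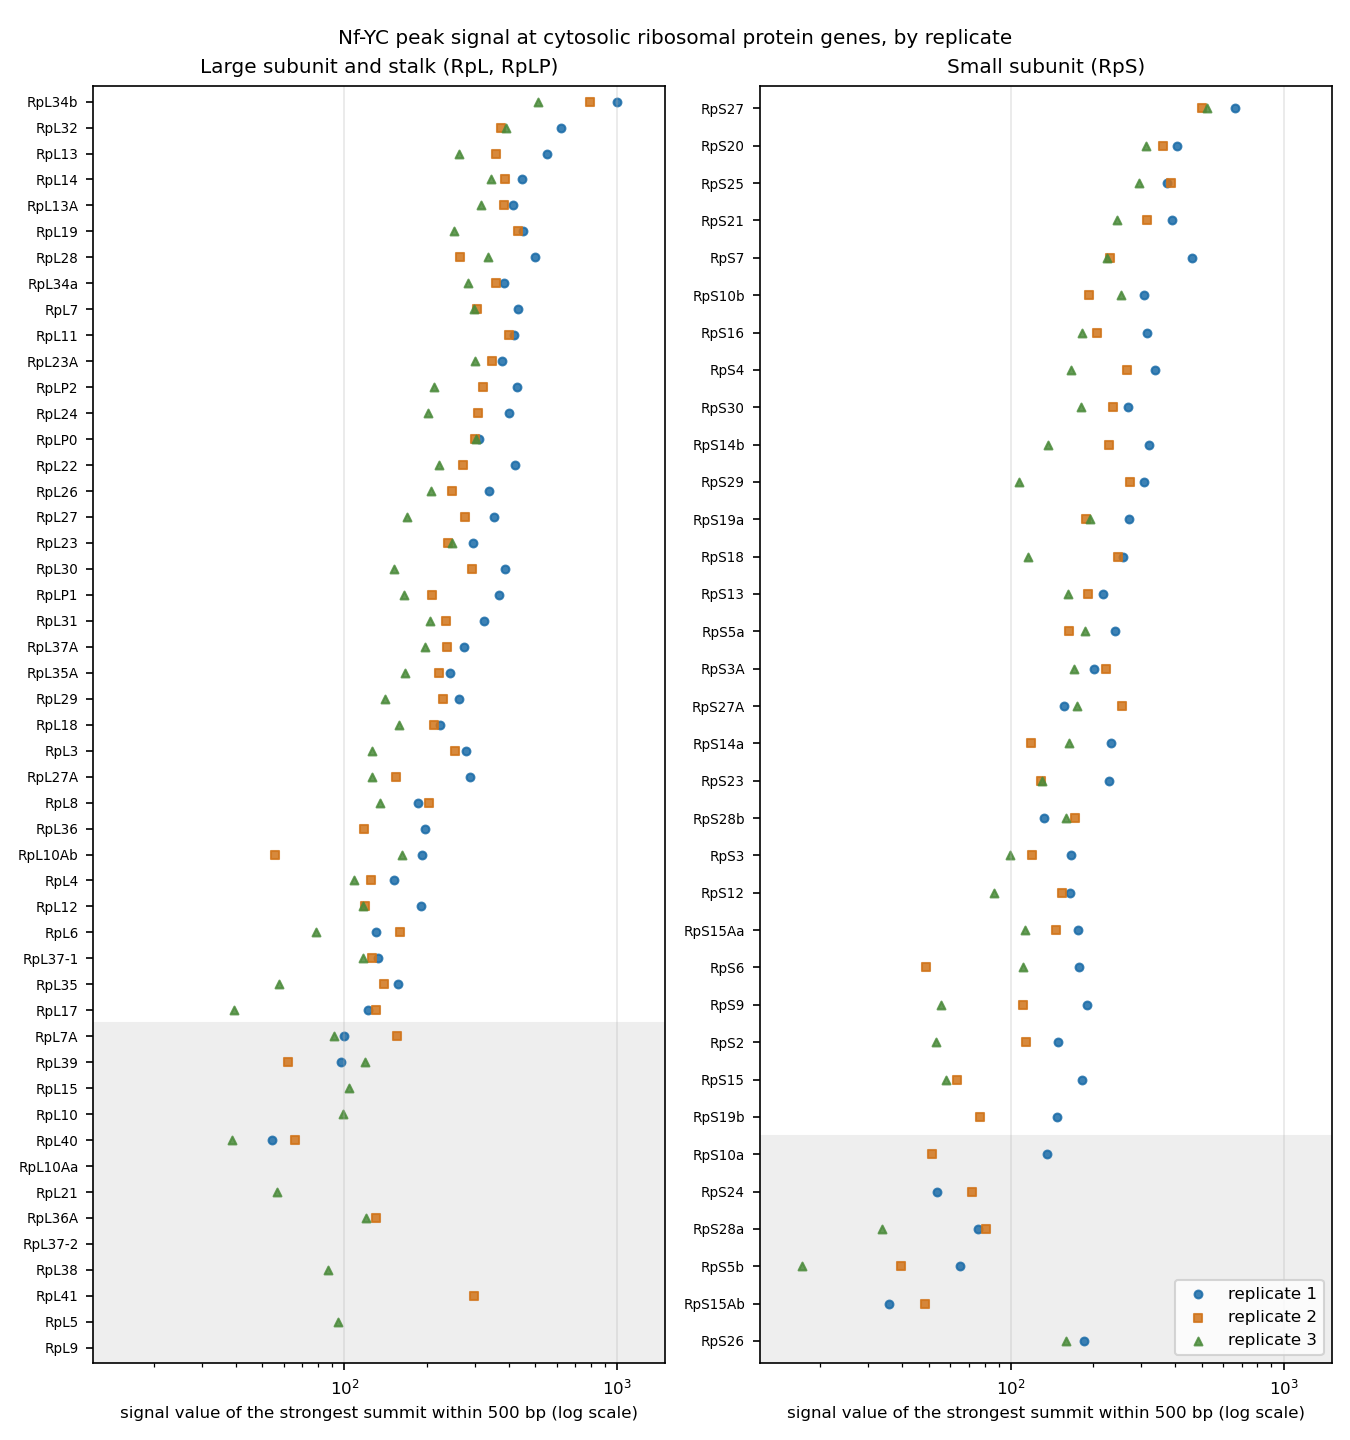
Each row is 1 of 83 of the 87 genes, ordered by its signal in the thresholded set (or, on the grey ground, by its pooled signal), and points give the signal of its strongest summit within 500 bp of a TSS in replicates 1 to 3 (log scale). The 19 genes on the grey ground had no thresholded summit. Replicate 1 points lie mostly to the right and replicate 3 points mostly to the left, and RpL34b and RpS27 head the panels.

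The replicates gave members a similar order. Of the 68 thresholded summits, 53 had a summit within 100 bp in all 3 replicate lists, 14 in 2 of them and 1 in 1. The same shares at other bound genes are not given. Over members with a match in both lists, Spearman's rho of the signals was 0.842 for replicates 1 and 2 (n = 61), 0.822 for 1 and 3 (n = 56) and 0.794 for 2 and 3 (n = 56). These points share their libraries and the choice of peaks, and the values are given as a description. The SD over replicates was 26.5% of the mean at the median member and ranged from 1.94% to 89.8%. Among the 53 members matched in all lists, replicate 3 gave the best rank at 31 and the worst at 8.

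Summits lay close to the start sites. The median distance from the strongest summit to the gene's nearest TSS was 43 bp at the 68 bound members and 133 bp at the other 4197 bound genes. A summit within 50 bp of the TSS was found at 36 of 68 members (52.9%), against 19.7% of other bound genes, and one within 100 bp at 49 (72.1%), against 37.3%. The side was alike, with 58 of 68 members (85.3%) and 83.1% of other genes having it upstream. By annotation, 47 of the 68 summits were intergenic, 16 lay in a 5′ UTR and 5 in an intron, and no such shares are given for other bound genes.

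**Figure D3:**
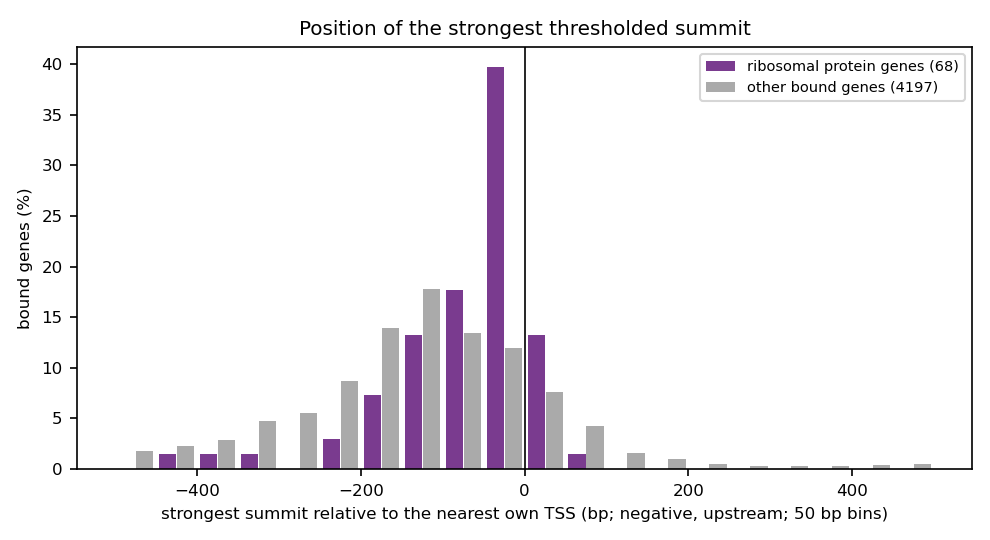
Bars give the share (%) of bound genes by the position of their strongest thresholded summit relative to the nearest own TSS, in 50 bp bins, for 68 ribosomal protein genes (purple) and 4197 other genes (grey). The bin from 50 bp upstream to the TSS holds 39.7% of the ribosomal protein genes and 11.98% of the other genes.

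Divergent neighbours were common, and members with and without one were bound. An opposite-strand start site within 500 bp upstream was annotated for 33 of the 87 genes (37.9%), against 27.3% of other genes. Of these 33, 30 were bound (90.9%), against 52.3% of the other head-to-head genes. Of the 54 members without such a neighbour, 38 were bound (70.4%), against 22.0% of other genes without one. The strongest summit of 34 of the 68 bound members also lay within 500 bp of a TSS of another gene. The share was alike at other bound genes, at 51.7%. In 6 of the 34 member cases the other gene's TSS was nearer. These were RpL34b, RpL13, RpS20, RpL10Ab, RpS6 and RpS19b, with CG8132, Dref, CG17271, CG5946, bys and CG5854 nearer. At RpS27A the TSS of Ip259 lay at the same distance, 36 bp. Neither at these genes nor at the others with a shared summit can the peak be assigned to the ribosomal protein gene alone.

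Many of these genes also house small nucleolar RNAs, which guide modification of ribosomal RNA. At least 1 snoRNA gene lay inside 28 of the 87 members on the same strand (32.2%), against 56 of 13858 other genes (0.404%). RpS5a held 14 and RpS7 held 7. Of the 28 hosts, 24 were bound, and of the 59 members without a snoRNA, 44 were. Other genes that host snoRNAs were bound in 32 of 56 cases (57.1%). More annotated start sites give more chances of a summit nearby. Of the 44 members with 1 annotated TSS, 32 were bound (72.7%), against 23.7% of other genes with 1, and of the 43 with 2 or more, 36 were bound (83.7%), against 48.6%.

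The CCAAT box was found at like shares of these peaks and of other promoter peaks. CCAAT on either strand lay within 100 bp of the summit at 26 of the 68 member peaks (38.2%) and at 1453 of the 3917 other promoter peaks (37.1%). Member peaks with CCAAT had a median signal of 541 (n = 26), and those without had 712 (n = 42). Of the 8 strongest member peaks, 2 had it. In the promoter window, from 250 bp before to 50 bp after 1 TSS per gene, 41 of 87 members held CCAAT (47.1%), against 46.5% of 13858 other promoters.

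Other promoter motifs were more or less frequent at members than at other genes. A polypyrimidine initiator was searched as TCTTT or CCTTT on the sense strand with its second base within 5 bp of the TSS. It was found at 39 of 87 members (44.8%), against 1.92% of the other promoters. Within 20 bp, a reach chosen after the values were seen, it was found at 64 members (73.6%), against 8.18%. TATAAA, 40 to 20 bp upstream on the sense strand, was found at 1 member (1.15%), against 7.90%. TATCGATA, the element bound by Dref, was in 26 member promoters (29.9%), against 9.10%. GAGAG, of GAGA factor, was in 15 (17.2%), against 30.3%.

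Bound and unbound members were also set side by side. The initiator within 5 bp was found at 29 of 68 bound members (42.6%) and 10 of 19 unbound ones (52.6%). TATCGATA was found at 21 of 68 (30.9%) and 5 of 19 (26.3%). GGTCACAC, the core of the M1BP motif, was in 12 of the 68 bound members (17.6%), in 0 of the 19 unbound ones, in 12.4% of the other bound genes and in 7.75% of all other genes. CACGTG, the E-box recognised by Myc, was in 7 of 68 (10.3%), 0 of 19, 4.88% of the other bound genes and 4.18% of all other genes. All these motifs except the initiator and the TATA box were searched on both strands. The CA repeat ACACAC, whose letters overlap those of the M1BP core in part, was in 12 of 68 (17.6%), 3 of 19 (15.8%) and 15.8% of other genes. With 19 unbound genes the zeros rest on few promoters, and no test was made.

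**Figure D4:**
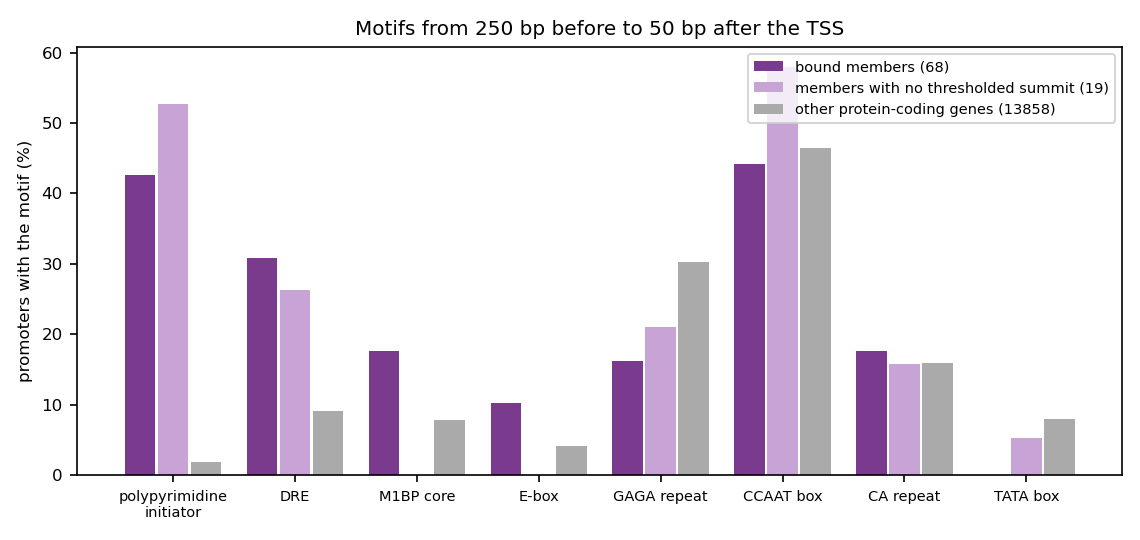
Bars give the share (%) of promoters that hold each motif, for the 68 bound ribosomal protein genes (dark purple), the 19 without a thresholded summit (light purple) and the 13858 other protein-coding genes (grey). The initiator stands at 42.6%, 52.6% and 1.92%, and the CCAAT box at 44.1%, 57.9% and 46.5%.

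The 19 members without a thresholded summit fell into several kinds. In the pooled list 10 of them had a weaker summit within 500 bp. In the full lists of replicates 1, 2 and 3, 9, 10 and 12 of them had one. Summits in all 3 replicate lists were found at RpL39, RpL40, RpL7A, RpS28a and RpS5b. These summits did not always coincide, and the strongest at RpL40 lay at -479, 109 and -424 bp from the TSS in replicates 1, 2 and 3, with upstream negative. RpL7A came closest to the threshold, with a pooled signal of 244 at rank 7531 and 99.3, 155 and 91.3 in replicates 1, 2 and 3. Its ranks there were 9702, 3989 and 4397. RpL39 had 97.2, 62.0 and 118, at ranks of 9907, 11229 and 3295, and RpL40, which encodes ubiquitin fused to a ribosomal protein, had 54.5, 66.0 and 38.7. RpS27A, the other ubiquitin fusion of the set, was bound, with 517 in the thresholded set, at a summit equally near to Ip259. RpS28a lay just outside the window as well, with a thresholded summit 544 bp from its TSS. Just inside it were RpS19b at 383 bp and RpS6 at 417 bp.

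Another 5 unbound members had a summit in replicate 3 alone. These were RpL10, RpL15, RpL21, RpL38 and RpL5, with signals there of 99.1, 104, 56.4, 87.3 and 94.5 at ranks 4001, 3813, 7379, 4626 and 4223 of 30000. RpL5, the other protein partner of 5S ribosomal RNA, starts at 22536650 on 2L, and RpL21 at 22247833. RpL15 and RpL10 start at 27267255 and 23095471 on 3L, and RpL38 at 4516458 on 2R. These are the ends of the arms that lie towards the centromere. In replicate 1 the nearest summits were 366375, 77558, 2538181, 147532 and 900268 bp away from RpL5, RpL21, RpL15, RpL10 and RpL38. In replicate 2 they were 367346, 78529, 2538289, 205143 and 899635 bp away. In replicate 3 they were 60, 131, 19, 100 and 53 bp away. In replicates 1 and 2 the summit nearest to any of the 5 genes was thus 77558 bp away, while replicate 3 held one at each start.

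Few peaks of any kind lay around these genes. With a limit chosen after the values were seen, 6 members had 10 or fewer pooled summits within 100 kb of their TSS. They were these 5 and RpS26, and all 6 were unbound in the thresholded set. The count of nearby summits includes any at the gene itself, so this split is fixed in part by the limit and is given as a description. The full list of replicate 3 had a summit at 6 of the 6, replicate 1 at 1 and replicate 2 at 0. Of 602 other genes in such sparse surroundings, 25 were bound in the thresholded set (4.15%). The full list of replicate 3 had a summit at 185 of them (30.7%), against 46 in replicate 1 (7.64%) and 40 in replicate 2 (6.64%). Of the 81 members outside such surroundings, 68 were bound (84.0%), against 31.5% of the other genes there. Within 500 bp of the 5 start sites, between 13.3% and 23.4% of the RefSeq sequence was repeat-masked, and at bound members the median was 14.6% and the highest value 29.6%. The shares were 14.9% at RpL10, 23.4% at RpL15, 13.3% at RpL21, 18.8% at RpL38 and 21.4% at RpL5, and their part in the gaps was not tested.

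**Figure D5:**
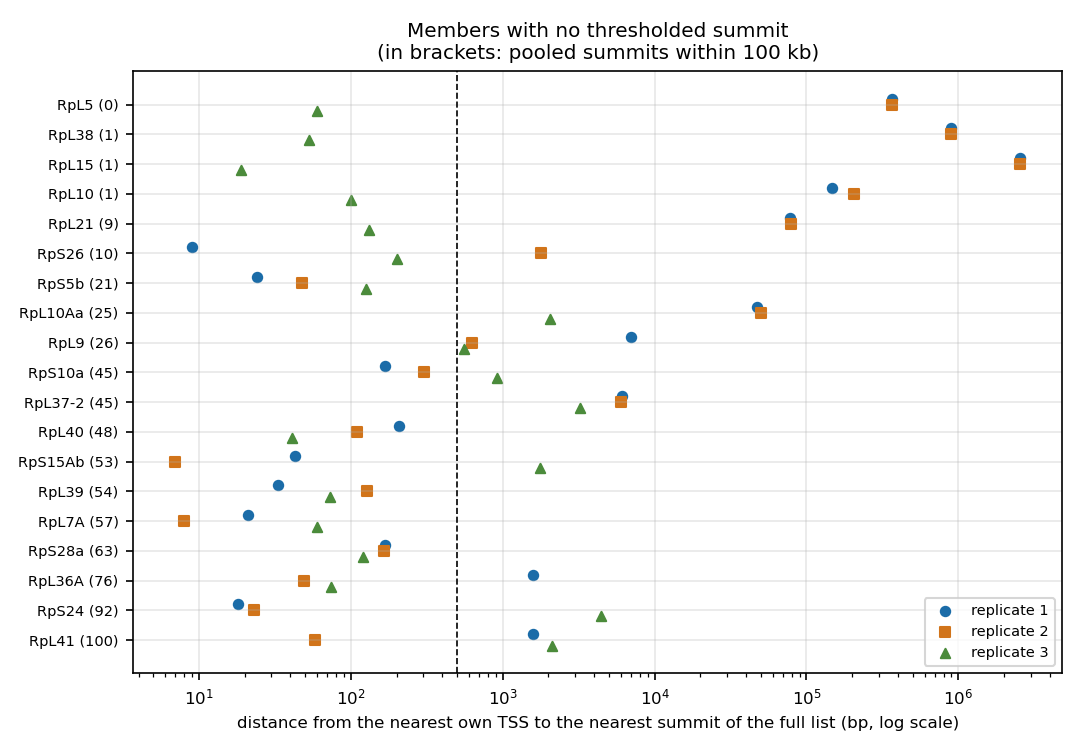
Rows are the 19 members with no thresholded summit, with the number of pooled summits within 100 kb in brackets, and points give the distance (bp, log scale) from the gene's nearest TSS to the nearest summit of each full replicate list. The dashed line marks 500 bp. At RpL5, RpL38, RpL15, RpL10 and RpL21 the replicate 3 point lies at 19 to 131 bp and the others at 77558 bp or more.

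The remaining unbound members varied between replicates. RpS10a had 136 and 51.5, RpS15Ab 35.7 and 48.3, and RpS24 53.5 and 71.7 in replicates 1 and 2, and none of the 3 had a summit in replicate 3. RpS26 had 185 and 159 in replicates 1 and 3 and none in replicate 2. RpL36A had 130.3 and 120.04 in replicates 2 and 3. RpL41, which encodes a very short peptide, had 297 in replicate 2, at rank 1702, and no summit in the other replicates. Neither RpL36A, RpL41 nor RpS26 had a pooled summit within 500 bp, although 1 or more replicate lists did. RpL9, RpL10Aa and RpL37-2 had no summit within 500 bp in any list. At RpL9 the nearest lay 557 bp away in replicate 3 and 628 bp away in replicate 2.

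The copies of most paralogue pairs differed in whether they had a thresholded summit. Of 9 pairs, 6 had a thresholded summit at 1 copy only. RpS5a had 241, 163 and 187 in replicates 1, 2 and 3, against 65.0, 39.7 and 17.1 at RpS5b. RpS10b had 306, 194 and 254, against 136 and 51.5 at RpS10a in replicates 1 and 2. RpS28b had 132, 171 and 159, against 75.9, 80.7 and 33.8 at RpS28a. RpS15Aa had 176, 147 and 112, against 35.7 and 48.3 at RpS15Ab. In each of these pairs the values of the copies did not overlap, which the choice of pairs by the thresholded set largely fixes. RpL37-1 had 133, 126 and 117 and RpL10Ab had 192, 55.8 and 162, while RpL37-2 and RpL10Aa had no summit in any list. The replicate summits of these 2 bound copies did not coincide. They lay at 11, -156 and -97 bp from the TSS at RpL37-1, and at -138, 75 and -323 bp at RpL10Ab, with upstream negative.

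The other 3 pairs were bound at both copies. RpL34b and RpL34a had thresholded signals of 2260 and 1026. RpS19a and RpS19b had 637 and 256, with the RpS19b summit next to CG5854 as described above. RpS14b and RpS14a, which lie in tandem on X, had 686 and 491, with summits 12 and 180 bp upstream of their own start sites. RpS5b, RpS10a and RpS19b are known as copies enriched in the germ line.

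The start sites of 4 of the pairs bound at 1 copy are printed to compare the initiator between copies. Those of RpL5, RpL21 and RpL10 are added as genes with a summit in replicate 3 alone. Each run goes from 40 bp before to 25 bp after the start on the sense strand of Release 6, and capitals mark the TCTTT or CCTTT nearest to the start within 20 bp. RpL10Aa and RpS10a have none within 20 bp, the reach chosen after the values were seen. Within 5 bp no printed pair differed, since RpS5a and RpS5b both have one and the copies of the other 3 pairs have none. The pairs bound at 1 copy that are not printed did differ, in opposite directions. The bound RpS15Aa has one within 5 bp and RpS15Ab has none, while the unbound RpL37-2 has one and RpL37-1 has none. RpL5 and RpL21 also have one within 5 bp, while that of RpL10 has its second base 8 bp from the start. The windows, in order, are chr3L:11822811-11822875 (plus), chr3R:15037326-15037390 (plus), chrX:17148240-17148304 (minus), chr3R:14901539-14901603 (minus), chrX:19598000-19598064 (plus), chr3R:27652720-27652784 (plus), chrX:9554583-9554647 (plus), chr3R:30022624-30022688 (minus), chr2L:22536626-22536690 (minus), chr2L:22247809-22247873 (minus) and chr3L:23095447-23095511 (minus).
RpL10Ab: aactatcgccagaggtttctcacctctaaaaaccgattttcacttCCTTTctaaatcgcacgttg
RpL10Aa: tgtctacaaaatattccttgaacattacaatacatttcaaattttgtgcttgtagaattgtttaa
RpS5a: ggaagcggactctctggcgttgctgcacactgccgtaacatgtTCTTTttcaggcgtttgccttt
RpS5b: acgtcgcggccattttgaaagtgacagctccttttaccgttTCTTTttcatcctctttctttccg
RpS10b: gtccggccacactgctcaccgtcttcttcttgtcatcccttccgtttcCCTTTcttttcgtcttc
RpS10a: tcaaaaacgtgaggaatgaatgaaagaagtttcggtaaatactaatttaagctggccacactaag
RpS28b: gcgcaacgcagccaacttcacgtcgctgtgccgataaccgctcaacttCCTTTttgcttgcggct
RpS28a: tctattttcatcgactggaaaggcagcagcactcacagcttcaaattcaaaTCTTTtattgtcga
RpL5: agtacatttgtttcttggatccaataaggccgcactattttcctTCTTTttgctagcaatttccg
RpL21: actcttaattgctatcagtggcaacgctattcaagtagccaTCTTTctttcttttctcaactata
RpL10: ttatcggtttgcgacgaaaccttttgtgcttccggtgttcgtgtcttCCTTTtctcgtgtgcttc

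Genes related by function are set beside the background of 30.6%. Of 7 other genes outside the symbol rule that encode proteins of the cytosolic ribosome or are named after them, 4 were bound. They were sta and Rack1, for proteins of the small subunit, with signals of 475 and 558, and RpLP0-like and RpL7-like, with 407 and 277. RpL22-like, RpL24-like and RpS28-like were not bound. Of 20 genes for ribosome assembly and the nucleolus, 14 were bound (70.0%), among them eIF6 (2689), Ns2 (1749), Fib (534) and Nop56 (579). Of 11 matched genes for promoter factors and regulators of growth, 7 were bound, among them M1BP (1673), Xrp1 (1080.4), Thor (744) and S6k (371). The Xrp1 summit lay 500 bp upstream, at the limit of the window. Dref, of this list, was bound through the peak also counted for RpL13. In the same way bys, of the assembly list, was bound through that of RpS6. Trf2, which replaces Tbp at many ribosomal protein promoters, had no thresholded summit within 500 bp, and Tbp had one of 304.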

How the data were processed

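Per the deposited notes, the authors called peaks for each replicate against 1 control alignment, and on the 3 replicates pooled, on dm6. Which aligner, caller and IDR threshold were used is not stated in those notes. Each deposited peak has a signal score with no stated unit and a −log10 q-value, which was the same for every thresholded peak and was not used. Library depth is unknown.

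Release 6 sequence and Ensembl release 115 annotation (BDGP 6.54) were used, and no peak passed an arm's end. Coordinates are 1-based. A gene takes its strongest summit within 500 bp of a protein-coding TSS. Replicate values are those of the strongest summit within 500 bp, while mean ± SD uses summits within 100 bp of the thresholded one. One TSS per gene, that of most transcripts, was used for motifs. Scripts ran in Python 3.11.15 with pandas 2.3.3 and were tested on planted summits.

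Members and gene lists were chosen with earlier results of these data known. All members are counted, with values by rule for the 8 strongest, the 3 weakest, the unbound and the paralogues. A few genes are not reported by name here. Other members named were chosen after their values were seen. Genes are not replicates, so no p-values are given.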

Additional observations from a re-analysis of the deposited data

How the results depend on the processing

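The count of 68 bound members lay between 63 and 78 with windows of 250 or 1000 bp, 1 TSS per gene, peak intervals over the TSS, the nearest gene only and the pooled list, where between 23.9% and 46.1% of all genes were bound. Leaving 1 replicate out meant keeping thresholded peaks with a summit within 100 bp among the 7476 strongest of both other replicates. The replicate left out still counted in the thresholded set and its signal. The number of bound members was then 53 to 58, against 21.3% to 23.6% of all genes, in sets of 4652 to 5321 peaks. By construction it fell in stricter sets. The upper 25% of peaks left 21 members, 16 of the large and 5 of the small subunit, against 8.69% of all genes, and the upper 50% left 20 of the small subunit, against 17.7%. The median rank percentile of 68.1 was 61.1 in the strongest peaks of replicate 1 alone, and 53.8 to 59.0 with 1 replicate left out, where other genes had 51.9 to 53.9. The margin over other genes was thus smaller there, in sets limited to matched peaks and ranked anew, and the cause was not tested. The median distance was 74.0 bp in the strongest peaks of replicate 3 alone. The share with CCAAT was 23.5% within 50 bp and 52.9% within 200 bp of the summit, against 21.2% and 58.4% of other promoter peaks. It was 32.5%, 29.5% and 35.1% at the strongest summits of replicates 1, 2 and 3, against 34.9%, 34.5% and 35.3% of other promoter peaks. In the sets with 1 replicate left out of the matching it was 30.2% to 36.2%. In promoter windows from 100 bp before the TSS, CCAAT was at 25.3% and GAGAG at 8.05%, against 26.1% and 18.5% of other promoters. At the TSS nearest to the summit of the bound members TATAAA was at 0% and the initiator at 45.6%. Other bound genes had 2.62% and 1.76%. Within 20 bp of the usual TSS of all members the initiator was at 73.6%. The median SD was 16.8% to 33.0% of the mean with the values of 1 replicate left out. Limits of 5 and 20 summits for sparse surroundings held 4 and 8 members, of which 0 and 2 were bound, against 1.98% and 9.24% of other genes. No paired analysis was possible because there is 1 group.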
